A study of Sus scrofa domesticus with 4 samples.

Results

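Receptors, ion channels, calcium pumps and a gap junction protein that set uterine contraction were examined in pig myometrium (the muscle layer of the uterus) cultured with orexin B, a hypothalamic peptide that acts through orexin receptors. The genes were the oxytocin receptor OXTR, the gap junction gene GJA1, the endothelin receptors EDNRA and EDNRB, the potassium channel subunits KCNMA1 and KCNMB1, the calcium pump ATP2A2, its inhibitor PLN and the calcium release channel ITPR1. Members were found as array probes whose RefSeq mRNA accession belongs to one of these 9 genes. 8 of the genes had a probe, 19 probes in all, of 2970 named genes and 43603 probes on the array. No probe was matched to ITPR1, which was not analysed here. 18 of the 19 probes, from 7 genes, were bright enough to test. The tested probes are all those well above background in the orexin B or in the untreated channel of every array.

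A contraction begins when oxytocin, endothelin or prostaglandins bind receptors on the muscle cell and release calcium from the sarcoplasmic reticulum, and when voltage-gated channels let calcium in. The calcium pump encoded by ATP2A2 returns it to the store, phospholamban (PLN) holds that pump back, and calcium-activated potassium channels (KCNMA1 with KCNMB1) damp the electrical activity. Gap junctions of the connexin encoded by GJA1 couple the cells so that the muscle contracts as a whole. In many mammals OXTR and GJA1 are known for their rise towards labour.

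Each array compared orexin B explants with untreated explants in a direct hybridisation of 2 colours. The orexin B explants were slices of uterine horn myometrium from Large White x Polish Landrace gilts aged 7 to 8 months, on days 15 to 16 of gestation, kept for 24 h with 10 nM orexin B. The untreated explants came from the same kind of gilts and were kept for the same time with no addition. The labels give 4 gilts and 4 experiments with duplicate cultures, and they do not say which gilt is on which array. The dyes were swapped: arrays 1 and 3 had orexin B RNA in Cy5, and arrays 2 and 4 had it in Cy3. Array 1 was alone on a slide and the other arrays shared another. Every ratio is orexin B over untreated on the log2 scale. Errors are limma's moderated standard errors over the 4 arrays, whose small number limits the precision.

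Over the whole array, limma left 0 of 19879 tested probes under an adjusted p of 0.05 (0%), and an unmoderated test also left 0. At an unadjusted p under 0.05 limma had 1534 (7.72%), of which 4.31% of tested probes were higher and 3.41% lower in orexin B explants, and the unmoderated test had 1195. Array ratios correlated across probes at r = 0.14 and 0.36 within a dye orientation and between -0.18 and 0.14 across orientations. Probes are not independent replicates, and these r values describe the arrays only. Detection differed between the channels over the whole array. On array 1, 54.3% of probes were well above background with orexin B and 37.6% in untreated tissue. These shares were 48.7% and 50.1% on array 2, 51.2% and 45.5% on array 3, and 52.8% and 58.2% on array 4. A gene above background in 1 channel only is read beside these shares. All 7 smooth muscle marker genes with a probe were well above background in both channels of all arrays, as were 4 of 4 fibroblast, 6 of 7 macrophage and 5 of 5 blood endothelium marker genes. Of 3 epithelial marker genes 1 was, and no pericyte marker had a matched probe. In such bulk tissue fewer cells of a type and less RNA per cell cannot be told apart.

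OXTR, the receptor through which oxytocin drives uterine contraction, was strongly detected in every explant sample. Its 1 probe had normalized intensities of 47522, 24649, 18393 and 22440 with orexin B on arrays 1 to 4, against 37110, 27466, 17207 and 17739 in untreated tissue. The orexin B channel was the brighter on arrays 1, 3 and 4 and the dimmer on array 2. The ranges of the groups overlapped. The log2 ratios were 0.36, -0.16, 0.096 and 0.34, a mean of 0.16 ± 0.13 (n = 4, limma adjusted p = 0.795). The 95% interval runs from 0.899-fold to 1.39-fold. The spread between arrays was wider than the difference between the channels: the brightest array exceeded the dimmest by 2.58-fold with orexin B and by 2.16-fold without treatment. Array 1, which was on its own slide, was the brightest in both groups. The mean ratio was 0.093 without replicate 1, 0.099 without replicate 4, 0.26 without replicate 2, and 0.057 when arrays were centred on their median instead of by loess.

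GJA1, which encodes the main gap junction connexin of myometrium, was the member with all arrays on the same side of 0. Its 1 probe had intensities of 457, 899, 468 and 548 with orexin B, against 400.5, 593, 444 and 423 in untreated tissue. In each array the orexin B channel was the brighter, although the ranges of the groups overlapped. Log2 ratios were 0.19, 0.60, 0.075 and 0.38, a mean of 0.31 ± 0.13, or 1.24-fold (95% interval 1.002-fold to 1.53-fold). The unadjusted p was 0.0486 in limma's test and the adjusted p was 0.645, so GJA1 did not pass over all probes. Its unadjusted p was not under 0.05 with median centring, Agilent's processed signals, slide as a block or the unmoderated test. Nor was it with both channels required to be above background, or without replicate 1, 2 or 4. It stayed under 0.05 with no background subtraction, no filter on dim probes, a dye term or without replicate 3. Over the alternatives tried the adjusted p of GJA1 ran from 0.348, with dye as a further term, to 1, with median centring. Of all tested probes, 14.0% had a larger mean ratio in absolute size. Agilent's processed signals gave a mean of 0.42.

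**Figure D1:**
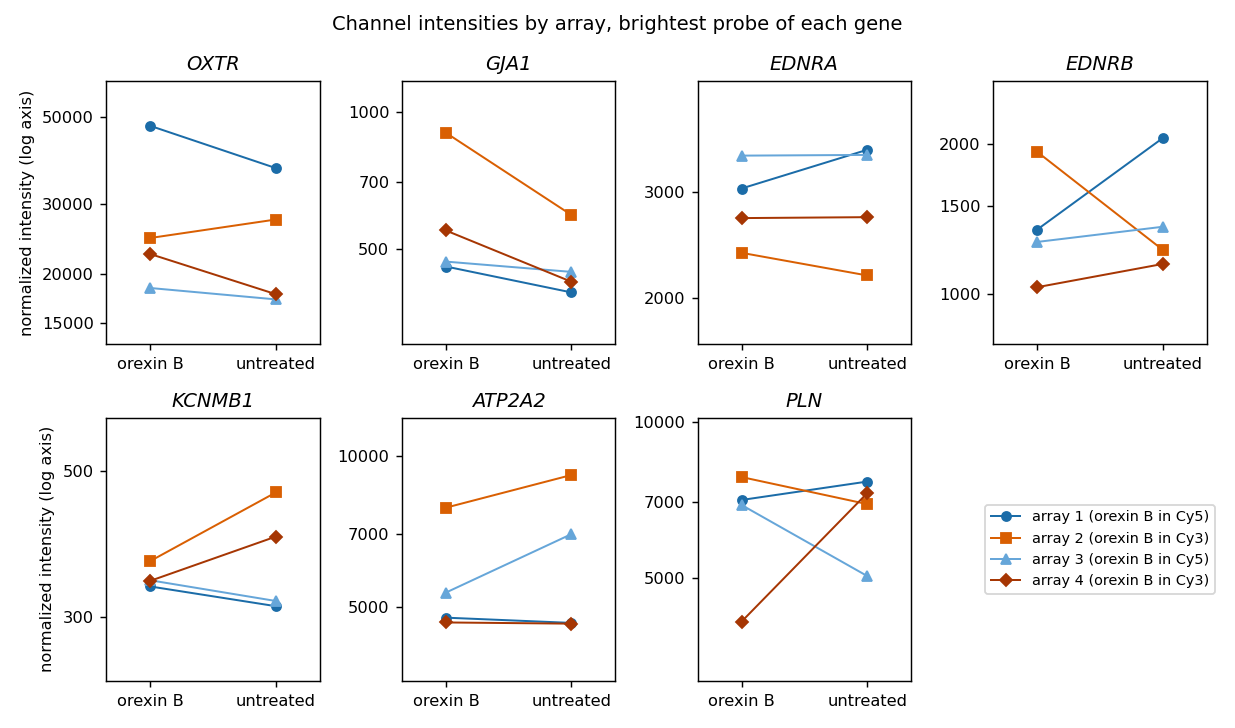
Normalized intensity (log axis, arbitrary units) in the orexin B channel (left) and the untreated channel (right) of each array, for the brightest probe of each tested gene, with a line joining the channels of an array. All 4 GJA1 lines are higher on the orexin B side, the steepest at 899 with orexin B against 593 untreated, while lines of the other genes run in both directions, and PLN on array 4 is at 4132 with orexin B against 7290 untreated.

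The endothelin receptors stayed near 0 on average. EDNRA, the receptor that carries the contractile action of endothelin in smooth muscle, had intensities of 3041, 2379, 3448 and 2717 with orexin B, against 3525, 2183, 3457 and 2726 in untreated tissue. The channels lay close together on arrays 3 and 4 and differed in opposite directions on arrays 1 and 2. Its log2 ratios were -0.21, 0.12, -0.0039 and -0.0051, a mean of -0.024 ± 0.12 (limma adjusted p = 0.973), and the 95% interval of 0.813-fold to 1.19-fold bounds the difference. The direction turned without replicate 1, at 0.039.

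EDNRB, the endothelin receptor best known from endothelium, had 2 probes for the same mRNA, and they disagreed in spread. The brighter one had intensities of 1348, 1927, 1273 and 1034 with orexin B, against 2053, 1227, 1365 and 1150 in untreated tissue. It was the dimmer with orexin B on array 1 and the brighter on array 2, with log2 ratios of -0.61, 0.65, -0.10 and -0.15 and a mean of -0.053 ± 0.20 (limma adjusted p = 0.963). The dimmer probe had intensities between 283 and 370 with orexin B and between 283.5 and 390 in untreated tissue. Its ratios were 0.019, -0.079, -0.011 and -0.0012, a mean of -0.018 ± 0.11. Its SD over arrays, 0.042, was smaller than that of 99.5% of tested probes, against 0.52 for the brighter probe. This probe was dim, and the offset of 50 added in processing draws ratios of dim probes towards 0. The KCNMB1 probe, also dim, had an SD over arrays of 0.23. The part of the offset in the small SD of the EDNRB probe was not tested. That SD is not read as closer agreement between arrays. Without replicate 1 the brighter probe averaged 0.13, and with Agilent's processed signals the dimmer one averaged 0.045.

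The calcium-activated potassium channel was near the detection limit. The probe of KCNMA1, the pore subunit, exceeded background clearly on array 2 alone, in both channels (1 of 4 arrays each), so it was not tested and no ratio is given. KCNMB1, the smooth muscle subunit that raises the channel's calcium sensitivity, was well above background on all arrays with orexin B and on 3 of 4 untreated, array 1 being the exception. Intensities were 333, 365, 341 and 340 with orexin B, against 311, 464, 317 and 397 in untreated tissue. The orexin B channel was the brighter on arrays 1 and 3 and the dimmer on arrays 2 and 4, which is the split by dye. The mean log2 ratio was -0.092 ± 0.13 (limma adjusted p = 0.887, 95% interval 0.758-fold to 1.16-fold). Without replicate 2 it was -0.0064, and without replicate 3 it was -0.16. Arrays 1 and 3 averaged 0.10 and arrays 2 and 4 averaged -0.29. A dye effect of equal size on every array cancels in the mean.

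ATP2A2 encodes the pump that refills the calcium store, and it had 6 probes for the same mRNA, all well above background on every array in both channels. They share a target and are not replicates. Their mean log2 ratios ran from -0.14 to 0.12, 3 below 0 and 3 above. The brightest probe (A_72_P303154) had intensities of 4762, 7884, 5343 and 4659 with orexin B, against 4649, 9157, 6985 and 4633 in untreated tissue. The channels matched closely on arrays 1 and 4, and orexin B was the dimmer on arrays 2 and 3. Its ratios were 0.035, -0.22, -0.39 and 0.0079, a mean of -0.14 ± 0.13 (limma adjusted p = 0.810).

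The other 5 ATP2A2 probes shared another pattern. On array 1 they lay between 0.17 and 0.68, on array 2 between -0.79 and -0.26, on array 3 between -0.0083 and 0.42 and on array 4 between -0.069 and 0.23. On array 3 the brightest probe was at -0.39, below all of them. All 6 were below 0 on array 2, where untreated tissue was the brightest of the untreated samples for each probe. One of the 5, A_72_P624661, had intensities of 2265, 3244, 3244 and 1766 with orexin B, against 1410, 4735, 2602 and 1737 in untreated tissue, where the highest array exceeded the lowest by 3.36-fold. It was the brighter with orexin B on arrays 1 and 3, close to level on array 4 and the dimmer on array 2. Its mean ratio was 0.12 ± 0.20 (limma adjusted p = 0.903). The sign of the mean turned without 1 replicate or another for each of these 5 probes, and in no case for the brightest.

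PLN encodes phospholamban, the small membrane protein that holds back the ATP2A2 pump until it is phosphorylated. Its 6 probes, again for the same mRNA, were all well above background throughout, and all 6 means were below 0, from -0.30 to -0.050. The brightest (A_72_P583001) had intensities of 7075, 7830, 6920 and 4132 with orexin B, against 7675, 6947, 5055 and 7290 in untreated tissue. With orexin B it was clearly dimmer on array 4, brighter on array 3 and near level on arrays 1 and 2. Its ratios were -0.12, 0.17, 0.45 and -0.82, a mean of -0.078 ± 0.21 (limma adjusted p = 0.945, 95% interval 0.675-fold to 1.33-fold).

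PLN ratios were close between probes on each array and far apart between arrays. On array 4 the 6 probes lay between 0.539-fold and 0.592-fold, and on array 3 between 1.31-fold and 1.51-fold. On array 2 they lay between -0.12 and 0.20 on the log2 scale. On array 1, 5 of them lay between -0.22 and 0.065 and the other, A_72_P643028, was at -0.88. That probe's intensities were 3037, 5632, 4859 and 3109 with orexin B, against 5602, 5197, 3534 and 5701 in untreated tissue. For 5 of the 6 probes the negative means rested on array 4: without replicate 4 they averaged between 0.12 and 0.19. A_72_P643028 averaged -0.10 without replicate 4. The SD of the brightest PLN probe over arrays was 0.55, larger than that of all but 11.7% of tested probes. The median SD over all tested probes was 0.27.

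**Figure D2:**
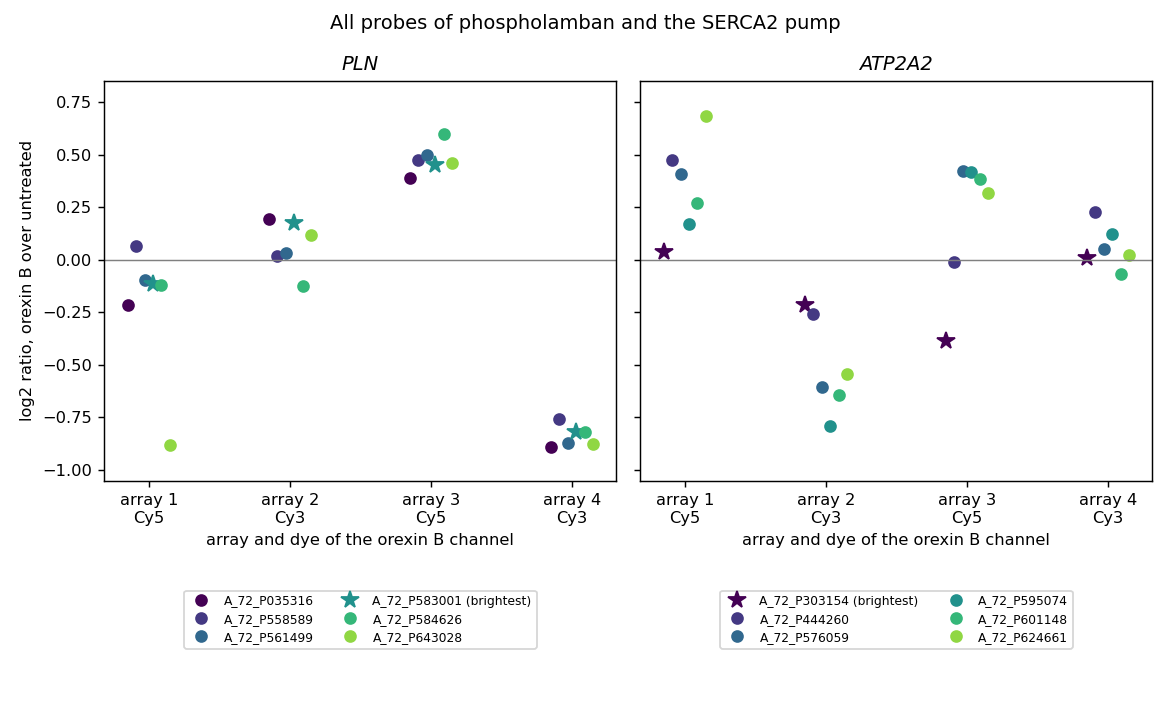
Log2 ratio of orexin B over untreated (y axis) for each of the 6 PLN probes (left) and the 6 ATP2A2 probes (right) on each array, with the dye of the orexin B channel under the array number and stars for the brightest probe. PLN probes cluster between -0.89 and -0.76 on array 4 and between 0.39 and 0.60 on array 3, and all 6 ATP2A2 probes are below 0 on array 2.

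Over all members, 0 of 18 tested probes passed the adjusted threshold (background 0%). At an unadjusted p under 0.05 there was 1 of 18, GJA1, higher in orexin B explants, which is near the background of 7.72% in either direction and 4.31% higher. All 4 arrays had the same sign for 1 of 18 probes, again GJA1, higher in orexin B explants, against 16% of all tested probes in either direction, 8.92% higher and 7.08% lower. Of the 18 means, 13 were below 0 and 5 above, but 12 of the probes belong to ATP2A2 and PLN and share their targets. By the brightest probe of each gene, 5 of 7 genes were below 0 and 2 above, with a median of -0.053, beside a median of 0.018 over all tested probes. The median was 0.039 without replicate 1. In simulated ratios with the real spread, a change of 1 on the log2 scale was recovered for 53.7% of 67 probes and a change of 0.5 for 0% of 67. A change of 2 was recovered for 87.9% of 66, with 4 false calls among 19708 probes. These shares hold for the changes simulated and are not a measure of power for the members.

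**Figure D3:**
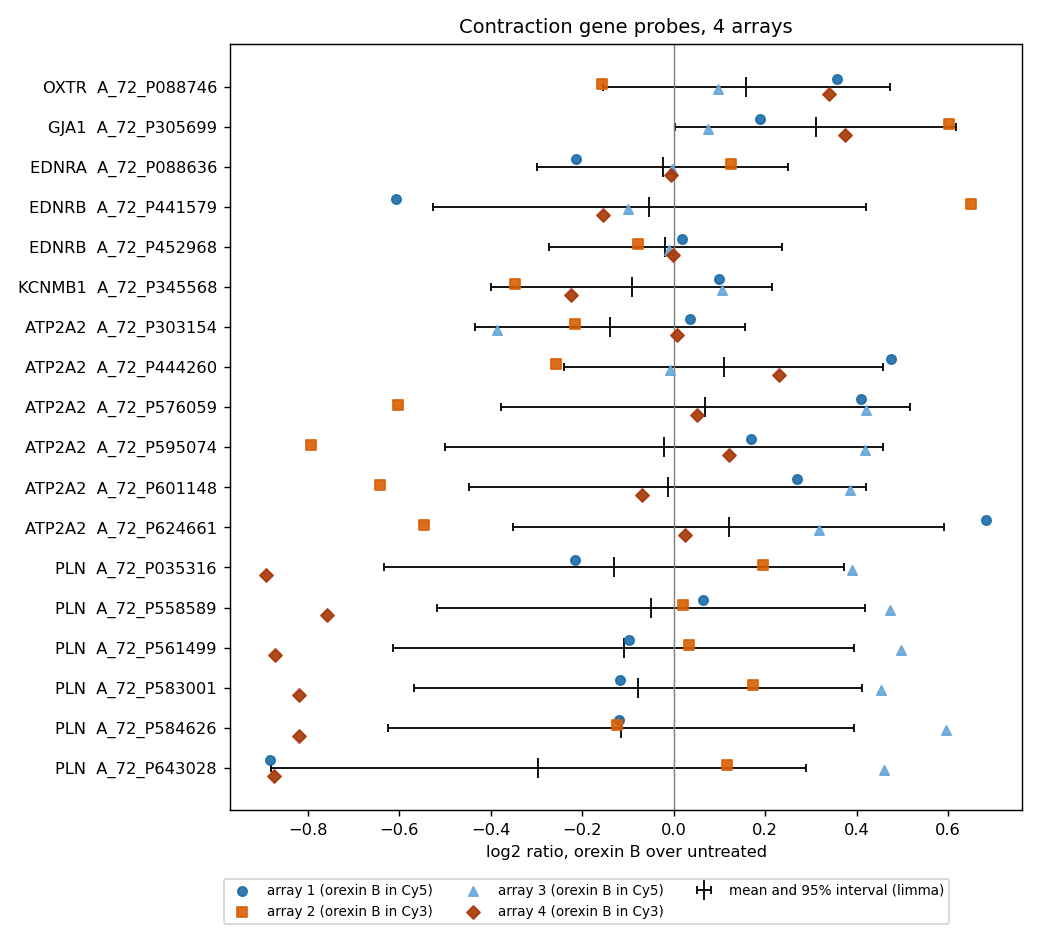
Log2 ratio of orexin B over untreated (x axis) for each tested probe (rows, by gene and probe name) on arrays 1 to 4 (symbols), with the limma mean and its 95% interval (black). The GJA1 points are all right of 0 with a mean of 0.31, and every other interval spans 0.

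With dye as a further term the treatment means did not move, since each orientation has 2 arrays, and only their errors changed. The dye term itself passed an adjusted p of 0.05 for 0 probes (0%) and an unadjusted p under 0.05 for 12.5% of all probes. Treatment beside the dye term reached these for 0% and 12%. Among members, 3 ATP2A2 probes had an unadjusted p under 0.05 for dye in limma's test. The largest term was 0.38 ± 0.14 for A_72_P624661 (adjusted p = 0.359), whose ratio averaged 0.50 on arrays 1 and 3 and -0.26 on arrays 2 and 4. For the brightest PLN probe these averages were 0.17 and -0.32, and for GJA1 0.13 and 0.49. The part of dye in single array values was not tested beyond this term.

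Smooth muscle markers were low on arrays 2 and 4, both with orexin B in Cy3, where the members lay on both sides of 0. The 7 contractile marker genes, such as actin and calponin, had medians of -0.0059, -1.15, 0.19 and -1.24 on arrays 1 to 4, with 7 of 7 means below 0 and 0 past the adjusted threshold. On arrays 2 and 4, where these markers were lowest, OXTR was at -0.16 and 0.34, GJA1 at 0.60 and 0.38, and EDNRA at 0.12 and -0.0051. The brighter EDNRB probe was at 0.65 and -0.15, and KCNMB1 at -0.35 and -0.22. The brightest PLN probe was at 0.17 and -0.82, and ATP2A2 probes were lowest on array 2 except for the brightest. Fibroblast markers (4 genes) had medians of -0.016, -0.72, -0.0016 and -0.77, also lowest on arrays 2 and 4. LUM, COL1A2 and CD34 were each lower on arrays 2 and 4 than on arrays 1 and 3. DCN did not follow this split: its ratios were -0.59, -0.42, -0.12 and -0.58, all below 0 and lowest on array 1. As orexin B over untreated, the smooth muscle and fibroblast medians were -0.49 and -0.41. As Cy5 over Cy3, with no array turned, they were 0.63 and 0.36. The part of dye in these medians was not tested. Macrophage markers (7 genes) had medians of 0.61, 0.19, 0.86 and 0.78. Of these 7, 6 were higher at an unadjusted p under 0.05 and 0 passed the adjusted threshold. The background was 4.31% of probes higher, and 122 of 1958 named genes. C1QC, counted among those higher, was well above background on 4 of 4 arrays with orexin B and on 3 in untreated tissue. It therefore entered the test through the orexin B channel alone, a filter that favours ratios above 0. Blood endothelium markers (5 genes) had medians of 0.44, 0.057, 0.044 and 0.21. At an unadjusted p under 0.05, 2 of 5 endothelium markers were higher, 1 of 4 fibroblast markers was lower and 0 of 7 smooth muscle markers passed. Over all tested probes the shares were 4.31% higher and 3.41% lower. The part of these cell types in the members' ratios was not tested.

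**Figure D4:**
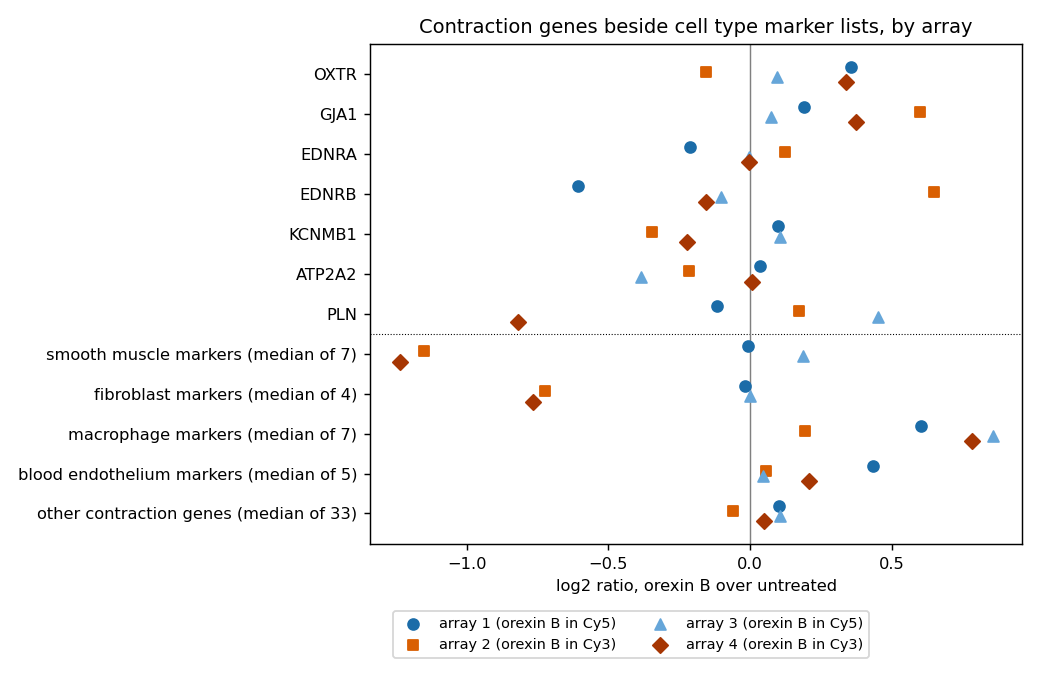
Log2 ratio of orexin B over untreated (x axis) on each array (symbols) for the brightest probe of the 7 tested genes (above the dotted line) and the median of marker or gene lists (below it). Smooth muscle markers reach -1.15 and -1.24 on arrays 2 and 4, both with orexin B in Cy3. On those arrays OXTR, GJA1 and EDNRA lie between -0.16 and 0.60, and EDNRB is at 0.65 and -0.15. KCNMB1 is at -0.35 and -0.22, PLN at 0.17 and -0.82 and ATP2A2 at -0.22 and 0.0079.

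Other genes of the contraction pathway were more often above 0 than below, and none passed the adjusted threshold. Of the genes listed for the pathway, 44 had a probe and 33 were tested. Of the 33, 24 were well above background in both channels of all arrays. The rest entered the test through the orexin B channel alone, a filter that favours ratios above 0. Means of the 33 were above 0 for 23 and below 0 for 10, with a median of 0.051. With both channels required to be above background the median was 0.067. Over all 1958 named genes tested, 1053 were above and 905 below, with a median of 0.017. 0 of 33 passed the adjusted threshold in limma's test and 1 had an unadjusted p under 0.05, beside 122 higher and 83 lower of the 1958 named genes and 7.72% of all probes. This was KCNN3, a small-conductance calcium-activated potassium channel, with ratios of 0.15, 0.33, 0.31 and 0.34 and a mean of 0.28 ± 0.11 (adjusted p = 0.626). It was well above background on 4 of 4 arrays with orexin B and on 3 of 4 in untreated tissue. It therefore entered through the orexin B channel alone, and Agilent's processed signals gave 0.51. The other tested potassium channel, KCNA5, averaged 0.030 ± 0.12.

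Among ligands, EDN1, which encodes the endothelin that EDNRA and EDNRB bind, had ratios of -0.096, 1.89, 0.11 and 0.32 and a mean of 0.55 ± 0.31 (limma adjusted p = 0.725). It was high on array 2, the array on which the brighter EDNRB probe was at 0.65, the dimmer one at -0.079 and EDNRA at 0.12. Without replicate 2 the EDN1 mean was 0.11, and with Agilent's processed signals it was 0.94. OXT, the oxytocin gene, averaged 0.048 ± 0.12. EDN3 was not well above background on enough arrays to be tested.

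Receptors that promote contraction were represented by 5 tested genes, 3 above and 2 below 0. They ran from PTGER3, a prostaglandin E receptor (-0.049 ± 0.13), to F2R, the thrombin receptor (0.20 ± 0.13, or 0.44 with Agilent's processed signals). Receptors and enzymes of the relaxant pathways numbered 7, 3 above and 4 below 0. The highest was CALCRL, the receptor subunit for calcitonin gene-related peptide and adrenomedullin, at 0.21 ± 0.11, or 0.72 with the processed signals. CALCRL and F2R entered the test through the orexin B channel: they were well above background on 4 of 4 arrays with orexin B, against at most 2 (CALCRL) and 3 (F2R) in untreated tissue.

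Calcium entry genes numbered 4, from ORAI1, the store-operated channel (-0.082 ± 0.17), to CACNA2D1, an accessory subunit of voltage-gated channels (0.23 ± 0.13, and 0.13 without replicate 1). Of 3 tested store and extrusion genes, ATP2B1, the calcium pump of the plasma membrane, had 0.34 ± 0.18, with ratios of 0.49, 0.55, -0.34 and 0.66. SLN, sarcolipin, another small inhibitor of the sarcoplasmic reticulum pump, was at 0.00016 ± 0.12, or 0.70 with the processed signals, and was well above background in untreated tissue on at most 1 of 4 arrays for any of its 9 probes. The other tested connexin gene, GJC1, averaged 0.12 ± 0.14, 0.019 without replicate 3 and 0.24 without replicate 4. Of 9 tested signalling genes, 7 were above 0, up to GNAQ, the G protein subunit that couples the oxytocin receptor to calcium release (0.25 ± 0.14, or 0.53 with the processed signals). The lowest was PPP1R14A, an inhibitor of myosin phosphatase (-0.22 ± 0.20), which was at -0.93 on array 2. None of these passed the adjusted threshold.

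The named genes whose 4 ratios lay nearest to a member's were found by Euclidean distance over the arrays among 1935 other genes, as a description of these 4 arrays only. For OXTR they were ZBTB9 (distance 0.071) and CALM3, a calmodulin gene (0.11). For GJA1 they were ARL1 (0.10) and KTN1 (0.13), and for EDNRA SPAST (0.10) and LACTB (0.12). For the brighter EDNRB probe they were STX11 (0.19) and BBS4 (0.28), for KCNMB1 SPATA20 (0.094) and RPL29 (0.096), and for the brightest ATP2A2 probe SCAP (0.098) and RSPH9 (0.13). PLN had the most distant neighbours, NFIX (0.38) and DSTN (0.39). Among the 7 members themselves the nearest pair was KCNMB1 and ATP2A2, at 0.56.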

How the data were processed

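Total RNA was labelled at 825 ng of cRNA per dye and hybridised to 4 Agilent pig arrays of 2 colours, per the labels. The deposited scanner files hold spot and local background intensity and processed intensity written by version 10.7.3.1 of Agilent Feature Extraction (source: per the file headers). The authors' deposited series table holds log2 ratios: 100% of 43541 probes matched the processed signals within 0.01 as orexin B over untreated, which is Cy5 over Cy3 with arrays 2 and 4 turned, as the dye fields of the labels give (column medians -0.27, -0.082, -0.20 and -0.094). The labels' protocol text names only untreated RNA in Cy3. No further centring was found, and no genome build is named, so no coordinates are given.

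Median intensities were corrected with normexp (offset 50) and normalized within arrays by loess, in which control spots had weight 0, with marked spots (128 to 209 per array) left out, in R 4.3.3 with limma 3.58.1. Channel intensities are these values after Aquantile scaling between arrays. They include the offset, which draws ratios of dim probes towards 0, and are not compared between probes. A probe was tested if 1 of the channels, orexin B or untreated, exceeded background clearly on all 4 arrays, with at least 3 unmarked arrays. An intercept model (lmFit, eBayes) was fitted to 19879 probes, two-sided, with Benjamini-Hochberg adjustment. The p-values reflect only the spread among the arrays. No probe was saturated. Accessions were matched to the Sscrofa11.1 RefSeq gene table (6697 probes). In lists the brightest tested probe stands for a gene. The fit was tested on simulated ratios of 19708 probes.

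Members, lists and tests were chosen with earlier results of these data known. The named genes were all members, the highest and lowest tested gene of each of 8 role lists and any gene past the threshold. The result of 1 gene that this rule names is not reported here, although list counts include it. Of the marker lists, T and NK cell markers (2 tested) had a median of 0.099 (-0.00043 to 0.19 without 1 replicate) and epithelial markers (2 tested) of -0.33 (-0.74 to 0.26, positive without replicate 3). Alternatives changed the background, normalization, filter, source, dye term, slide, direction, test and arrays used. Python 3.11.15 with matplotlib 3.10.9 made the figures.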

Additional observations from a re-analysis of the deposited data

Results flagged for a closer look

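Of 32 sets of 4 array ratios examined, 2 had a value far from the rest (by Dixon's gap over range), where chance gives 1.6. For ATP2B1, the plasma membrane calcium pump, array 3 gave -0.34, and the others gave 0.49, 0.55 and 0.66. For KCNN3, a potassium channel, array 1 gave 0.15, and the others lay between 0.31 and 0.34. Neither belongs to the 9 contraction genes examined.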

How the results depend on the processing

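No alternative brought any probe past an adjusted p of 0.05 (0 in each). The count at an unadjusted p under 0.05, 1534, was 177 with median centring, 2302 with no filter on dim probes, 2382 beside a dye term, 826 with slide as a block and between 726 and 1922 without 1 replicate. Means changed sign, none of them past the threshold, as follows (log2 ratios). Median centring gave -0.0058 for ATP2A2 A_72_P576059 and -0.067 for OXT. Agilent's processed signals and the authors' series table, which hold the same ratios, gave 0.045 for EDNRB A_72_P452968, 0.052 for ATP2A2 A_72_P595074, 0.022 for ATP2A2 A_72_P601148 and -0.026 for KCNA5. Slide as a block, in which array 1 alone weighs as much as the other 3 arrays together, gave 0.042 for ATP2A2 A_72_P595074, 0.081 for ATP2A2 A_72_P601148, 0.024 for ORAI1 and -0.0017 for SLN. With no array turned, which is Cy5 over Cy3 and holds the dye effect in place of the treatment, values were -0.18 for GJA1 A_72_P305699, 0.022 for EDNRB A_72_P452968, 0.19 for KCNMB1 A_72_P345568, 0.31 for ATP2A2 A_72_P595074, 0.34 for ATP2A2 A_72_P601148, 0.22 for PLN A_72_P035316, 0.32 for PLN A_72_P558589, 0.31 for PLN A_72_P561499, 0.25 for PLN A_72_P583001, 0.35 for PLN A_72_P584626, 0.084 for PLN A_72_P643028, -0.26 for ATP2B1, -0.040 for CALCRL, -0.55 for EDN1, -0.18 for F2R, -0.054 for KCNN3, 0.29 for ORAI1, 0.34 for PPP1R14A, 0.13 for PTGER3 and -0.13 for SLN. Leaving out 1 replicate gave ranges of -0.074 to 0.039 for EDNRA A_72_P088636, -0.29 to 0.13 for EDNRB A_72_P441579, -0.030 to 0.0021 for EDNRB A_72_P452968, -0.012 to 0.23 for ATP2A2 A_72_P444260, -0.048 to 0.29 for ATP2A2 A_72_P576059, -0.17 to 0.24 for ATP2A2 A_72_P595074, -0.15 to 0.20 for ATP2A2 A_72_P601148, -0.067 to 0.34 for ATP2A2 A_72_P624661, -0.30 to 0.12 for PLN A_72_P035316, -0.22 to 0.19 for PLN A_72_P558589, -0.31 to 0.14 for PLN A_72_P561499, -0.25 to 0.17 for PLN A_72_P583001, -0.35 to 0.12 for PLN A_72_P584626, -0.042 to 0.10 for KCNA5, -0.19 to 0.11 for ORAI1, -0.035 to 0.10 for OXT, -0.40 to 0.021 for PPP1R14A, -0.15 to 0.033 for PTGER3, -0.045 to 0.084 for SLN. The causes were not tested. Requiring both channels above background left out KCNMB1, CALCRL, F2R, KCNN3, ORAI1 and SLN. Each ratio already pairs an orexin B and an untreated sample within an array, so the test reported is paired by array. No further replicate block was fitted. The labels do not say which gilt is on which array, so pairing by animal is not established.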
